A study of Mus musculus with 13 samples.

Results

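The secreted protein osteopontin (Spp1), its cell-surface receptor Cd44, the membrane glycoprotein Gpnmb, and a set of insulin-like growth factor (IGF) genes comprising the ligand Igf1, the receptors Igf1r and Igf2r, and the binding proteins Igfbp4 and Igfbp5 were examined in sorted brain myeloid cells. These 8 genes, chosen by symbol with earlier results of these data known, were 8 of the 52636 genes listed for each mouse. The cells came from mice aged 14 to 15 months, 7 of them PS2APP;Trem2wt (2 male, 5 female) and 6 PS2APP;Trem2ko (1 male, 5 female), and each mouse was 1 replicate. Every mouse in both groups carried the PS2APP transgenes, encoding mutant human presenilin 2 and amyloid precursor protein, which lead to β-amyloid plaques, so there was no plaque-free group. The PS2APP;Trem2ko mice lacked Trem2 throughout the body through the Trem2 tm1(KOMP)Vlcg null allele, which was made on C57BL/6N and bred into the PS2APP line. Cells of cortex and hippocampus were sorted as positive for CD11b and CD45 and negative for Ly6g and Ccr2, a gate that holds microglia, the resident macrophages of the brain, together with other resident macrophages. In such bulk samples, fewer cells of a type and less RNA per cell cannot be told apart.

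Osteopontin is a secreted phosphoprotein of bone matrix, immune cells and injured tissue that binds integrins through an RGD sequence and also binds CD44, a receptor best known for binding hyaluronan. GPNMB is a glycoprotein of lysosomes, melanosomes and the cell surface that can be released by proteases, and its gene is a target of the MiT family of transcription factors, which govern melanocyte and lysosomal genes. IGF1 signals through the tyrosine kinase IGF1R to PI3-kinase and AKT, IGF2R clears IGF2 and carries lysosomal enzymes, and IGF binding proteins hold the ligands outside the cell. Microglia are a source of IGF1 in the brain, and Spp1, Gpnmb and Igf1 are among the genes whose transcripts rise in microglia that gather around plaques.

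The promoters of Spp1, Gpnmb, Igf1 and Igfbp4, the 4 members whose transcripts fell in PS2APP;Trem2ko mice, are given to be read side by side. They are RefSeq sequences on GRCm38.p6, written 5′ to 3′ on the plus strand, on which all 4 genes lie. Each runs from 250 bases before to 50 bases after the start annotated in RefSeq. For Spp1 only the first of its 2 promoters is given. For Igf1 the RefSeq start, 87861111, lies inside the gene span given below, which begins at 87858265. Capitals mark matches to CACGTG (an E-box), CATGTG (a variant E-box bound by MiT factors), TGANTCA (the AP-1 site) or GAGGAA (the core recognised by PU.1, a regulator of macrophage genes), each searched on both strands. No matches overlapped.
Spp1 promoter, chr5:104434861-104435160: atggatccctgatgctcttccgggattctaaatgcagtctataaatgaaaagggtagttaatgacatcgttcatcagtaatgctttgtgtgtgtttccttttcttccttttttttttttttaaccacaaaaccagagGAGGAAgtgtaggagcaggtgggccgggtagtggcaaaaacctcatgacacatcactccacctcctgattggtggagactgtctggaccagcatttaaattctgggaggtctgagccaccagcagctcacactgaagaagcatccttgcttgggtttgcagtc
Gpnmb promoter, chr6:49036268-49036567: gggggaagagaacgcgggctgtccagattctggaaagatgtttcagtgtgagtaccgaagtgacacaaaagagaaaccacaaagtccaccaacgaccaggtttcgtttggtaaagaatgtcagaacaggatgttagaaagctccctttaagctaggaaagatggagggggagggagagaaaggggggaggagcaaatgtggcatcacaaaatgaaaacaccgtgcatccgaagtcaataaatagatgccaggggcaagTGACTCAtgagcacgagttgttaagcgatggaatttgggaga
Igf1 promoter, chr10:87860861-87861160: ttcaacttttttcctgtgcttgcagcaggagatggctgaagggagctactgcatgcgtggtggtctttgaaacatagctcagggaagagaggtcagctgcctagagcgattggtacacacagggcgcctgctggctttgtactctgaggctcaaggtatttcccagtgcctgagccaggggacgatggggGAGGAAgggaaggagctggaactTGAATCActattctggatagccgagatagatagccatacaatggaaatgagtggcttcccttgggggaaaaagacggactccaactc
Igfbp4 promoter, chr11:99040994-99041293: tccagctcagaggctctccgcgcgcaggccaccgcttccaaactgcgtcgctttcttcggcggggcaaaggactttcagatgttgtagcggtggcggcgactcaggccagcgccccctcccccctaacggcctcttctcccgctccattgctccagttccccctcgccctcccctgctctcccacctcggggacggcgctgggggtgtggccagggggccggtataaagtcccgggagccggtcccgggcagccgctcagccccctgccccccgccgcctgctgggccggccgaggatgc

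All 8 members had a promoter in the RefSeq table, and Spp1 had 2. The first Spp1 promoter held GAGGAA at position -113 from its start, Gpnmb held TGACTCA at position 9, and Igf1 held GAGGAA at position -60 and TGAATCA at position -37. The Igfbp4 promoter and the second Spp1 promoter held none of the 4 motifs, nor did those of Igf1r and Igfbp5. Among members that were not called, Cd44 held GAGGAA at positions -243 and -220 on the minus strand of the gene, and Igf2r held CACGTG at positions -48 and -7 and CATGTG at position -91. Of 32851 promoters of the same length, 28.3% held GAGGAA, 14.2% CATGTG, 7.81% TGANTCA and 7.15% CACGTG. The GC content was 45.3% in the first Spp1 promoter and 36.7% in the second. It was 47.7% in Gpnmb, 52.3% in Igf1 and 71.3% in Igfbp4, beside a median of 52.7% over all promoters. These matches describe letters in a fixed window and say nothing of binding.

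Total counts on genes ranged from 26120961 to 114857155 per PS2APP;Trem2wt mouse and from 41567025 to 120569609 per PS2APP;Trem2ko mouse. The targeted gene, Trem2, lay between 818 and 1244 nRPKM in PS2APP;Trem2wt mice and between 0.393 and 2.29 nRPKM in PS2APP;Trem2ko mice. Every genotype label thus matched, and the sex labels were not checked in this way. Here nRPKM is RPKM, a read count scaled to gene length and sequencing depth, after the authors' adjustment for library size. The 8 microglia markers, among them P2ry12 and Tmem119, summed to 12351 to 14865 nRPKM in PS2APP;Trem2wt and 12299 to 14120 nRPKM in PS2APP;Trem2ko mice. Cx3cr1 was the 1 of them called lower (log2 fold change -0.49, adjusted p = 0.00670, edgeR). Border macrophage markers summed to 9.45 to 29.5 and 17.2 to 42.9 nRPKM, and monocyte and neutrophil markers to 6.85 to 126 and 2.61 to 29.1 nRPKM, in the same order. Of 53 markers of 10 other cell types, 44 had counts high enough to be tested, of which edgeR's quasi-likelihood test called 0 lower and 0 higher, and 0 of all 61 markers were listed at 0 in every mouse. The part of these cell types in the results below was not tested.

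The first question was which of the 8 genes depended on Trem2 in aged PS2APP mice. Transcripts of the secreted factors Spp1 and Igf1, of the membrane glycoprotein Gpnmb and of the binding protein Igfbp4 fell in PS2APP;Trem2ko mice, whereas neither IGF receptor nor Igfbp5 passed the test, and Cd44 missed the threshold. All 8 members passed the filter on low counts, which kept 17086 genes. With a threshold of 0.05 on the adjusted p of edgeR's quasi-likelihood test, 4 of the 8 were lower, a call that 1.53% of all tested genes received, and 3 were also at least 2-fold lower, beside 0.691% of tested genes. No member was higher by edgeR (0 also at an unadjusted p of 0.05), by voom with limma or by DESeq2, beside 0.503% of tested genes called higher by edgeR and 0.0527% called at least 2-fold higher. Every PS2APP;Trem2ko mouse lay below every PS2APP;Trem2wt mouse for Spp1, Gpnmb and Igf1, which was the case for 1.22% of tested genes. The members were chosen with earlier results of these data known, so these shares do not set them against a blind choice. All 8 log2 fold changes were below 0, beside a median of 0.00389 over all tested genes, although that of Igf1r was above 0 when females alone were compared.

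**Figure D1:**
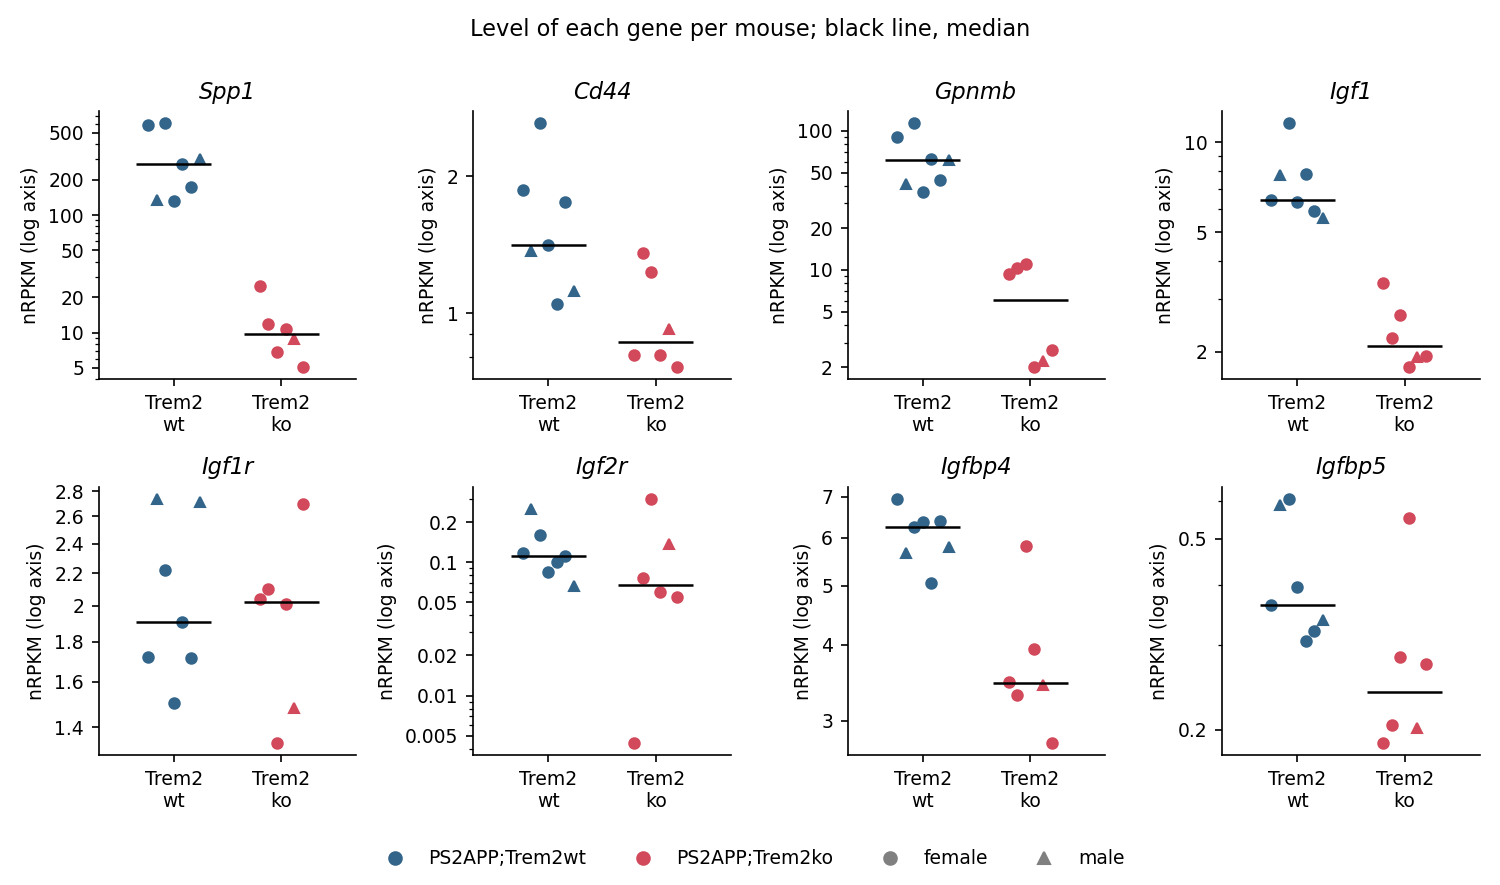
Level of each of the 8 genes per mouse, in nRPKM on a log axis that differs between panels. Circles are females, triangles are males, blue is PS2APP;Trem2wt (n = 7), red is PS2APP;Trem2ko (n = 6) and black lines are medians. The groups stand apart for Spp1, Gpnmb and Igf1, 1 PS2APP;Trem2ko mouse lies within the PS2APP;Trem2wt range for Igfbp4, and the groups overlap for the other members.

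Spp1 (ENSMUSG00000029304, chr5:104435118-104441050, plus strand, GRCm38) was the most abundant member and fell the most. Its level in PS2APP;Trem2wt mice was 132 nRPKM at the lowest, 272 at the median and 603 at the highest. In PS2APP;Trem2ko mice it was 5.07, 9.80 and 25.0 nRPKM. The highest PS2APP;Trem2ko mouse was thus well below the lowest PS2APP;Trem2wt mouse. The log2 fold change was -4.78 with an SE of 0.49 (adjusted p = 6.74e-05, edgeR's quasi-likelihood test), or 27.4-fold lower. By mean nRPKM, Spp1 went from rank 75 of the 52636 genes in PS2APP;Trem2wt to rank 3601 in PS2APP;Trem2ko mice.

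Spp1 also varied widely among mice of 1 genotype. The highest mouse had 4.56 times the level of the lowest in PS2APP;Trem2wt and 4.92 times in PS2APP;Trem2ko. On the log2(nRPKM + 0.1) scale its SD was 0.917 among PS2APP;Trem2wt mice, at the 98.5 percentile of tested genes, and 0.780 among PS2APP;Trem2ko mice, at the 96.7 percentile, beside medians over tested genes of 0.249 and 0.241. The counts behind these values were 8336 to 102562 in PS2APP;Trem2wt and 534 to 7333 in PS2APP;Trem2ko mice, so counting error was small beside the spread between mice. A model that overlaps the gene on the same strand, Gm42793, shares 11.6% of Spp1's 50-base transcript words and had median counts of 23 and 1 in the 2 genotypes.

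Gpnmb (ENSMUSG00000029816, chr6:49036546-49070929, plus strand) followed. It was found at 36.3, 61.8 and 113 nRPKM (lowest, median and highest) in PS2APP;Trem2wt mice, and at 2.0, 6.03 and 11 nRPKM in PS2APP;Trem2ko mice. The groups did not overlap. The log2 fold change was -3.36 with an SE of 0.47 (adjusted p = 0.000914, edgeR's quasi-likelihood test), or 10.3-fold lower. The PS2APP;Trem2ko mice were not evenly spread. Replicates 1, 2 and 3 lay between 9.40 and 11 nRPKM, and replicates 4, 5 and 6 between 2.0 and 2.65 nRPKM. Replicates are numbered here in the order in which the samples are listed. The labels give no processing batch, so a link of this split to handling was not tested. The SD of log2(nRPKM + 0.1) was 1.17 in PS2APP;Trem2ko mice, at the 99.5 percentile of tested genes, and 0.605 in PS2APP;Trem2wt mice, at the 91.4 percentile. Counts in PS2APP;Trem2ko mice were still 640 to 7567.

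Igf1 (ENSMUSG00000020053, chr10:87858265-87937042, plus strand), the IGF ligand that microglia make, was far less abundant than Spp1 and Gpnmb in PS2APP;Trem2wt mice and varied less than either within each genotype. In PS2APP;Trem2ko mice the ranges of Igf1 and Gpnmb overlapped. Its level was 5.58, 6.43 and 11.6 nRPKM (lowest, median and highest) in PS2APP;Trem2wt mice and 1.77, 2.08 and 3.40 nRPKM in PS2APP;Trem2ko mice. Again the groups stood apart, and the log2 fold change was -1.66 with an SE of 0.18 (adjusted p = 0.00012, edgeR's quasi-likelihood test), or 3.17-fold lower. An antisense gene, Igf1os, overlaps Igf1 and had median counts of 8 and 4, against at least 1223 counts for Igf1 in every mouse.

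Neither IGF receptor passed the test. Igf1r (ENSMUSG00000005533, chr7:67952827-68233668, plus strand), the signalling receptor for IGF1, was found at 1.51 to 2.74 nRPKM (median 1.91) in PS2APP;Trem2wt and 1.34 to 2.70 nRPKM (median 2.03) in PS2APP;Trem2ko mice. The ranges nearly coincided, and the log2 fold change was -0.10 with an SE of 0.17 (adjusted p = 0.849, edgeR's quasi-likelihood test). The 2 PS2APP;Trem2wt males had the highest levels of their group, 2.74 and 2.71 nRPKM. The PS2APP;Trem2ko male went the other way and, at 1.48 nRPKM, was the second lowest of its group. Among females alone the log2 fold change was 0.17 (adjusted p = 0.684, edgeR).

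Igf2r (ENSMUSG00000023830, chr17:12682406-12769664, minus strand), the receptor that takes up IGF2 and lysosomal enzymes, was the lowest member in mean level. It was found at 0.0667 to 0.251 nRPKM (median 0.112) in PS2APP;Trem2wt and 0.00442 to 0.299 nRPKM (median 0.0682) in PS2APP;Trem2ko mice. The PS2APP;Trem2ko mice spanned a 67.6-fold range that enclosed every PS2APP;Trem2wt mouse, but its lower end was 1 mouse, replicate 1 with 7 counts, and the other 5 lay between 0.0546 and 0.299 nRPKM. The log2 fold change was -0.28 with an SE of 0.59 (adjusted p = 0.878, edgeR's quasi-likelihood test). It was -0.93 without PS2APP;Trem2ko replicate 3, -0.02 without replicate 1, and -1.24 with voom and limma, and none of these passed the threshold. Its counts were 7 to 202 per mouse, and its SE was the widest of the 8 members. Igf2r lies on the same chromosome as Trem2, 35.6 Mb away.

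Cd44 (ENSMUSG00000005087, chr2:102811141-102901665, minus strand), the hyaluronan and osteopontin receptor, was at 1.05, 1.42 and 2.61 nRPKM (lowest, median and highest) in PS2APP;Trem2wt mice and 0.761, 0.866 and 1.36 nRPKM in PS2APP;Trem2ko mice. Of the PS2APP;Trem2ko mice, 4 of 6 were below all PS2APP;Trem2wt mice and 2 lay within their range. The log2 fold change was -0.70 with an SE of 0.21 (adjusted p = 0.114, edgeR's quasi-likelihood test). DESeq2 gave an adjusted p of 0.0247 and voom with limma 0.109, so the call for Cd44 depended on the tool.

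The binding proteins differed in their calls. Igfbp4 (ENSMUSG00000017493, chr11:99041244-99054392, plus strand), a secreted protein that holds IGFs until it is cleaved by the protease PAPP-A, was at 5.05, 6.24 and 6.94 nRPKM (lowest, median and highest) in PS2APP;Trem2wt mice and 2.76, 3.45 and 5.80 nRPKM in PS2APP;Trem2ko mice. Its levels were tightly grouped in PS2APP;Trem2wt mice, with an SD of log2(nRPKM + 0.1) of 0.147, at the 19.0 percentile of tested genes. The highest PS2APP;Trem2ko mouse lay within the PS2APP;Trem2wt range and the other 5 lay below it. The log2 fold change was -0.68 with an SE of 0.14 (adjusted p = 0.0180, edgeR's quasi-likelihood test), or 1.60-fold lower. Among females alone the size was alike, -0.69, but the adjusted p was 0.0797 (edgeR).

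Igfbp5 (ENSMUSG00000026185, chr1:72857932-72874884, minus strand), another secreted IGF binding protein, was at 0.305, 0.364 and 0.605 nRPKM (lowest, median and highest) in PS2APP;Trem2wt mice and 0.188, 0.239 and 0.554 nRPKM in PS2APP;Trem2ko mice. Of the PS2APP;Trem2ko mice 5 of 6 lay below all PS2APP;Trem2wt mice, and the sixth, replicate 4, lay near the top of their range. The log2 fold change was -0.56 with an SE of 0.27 (adjusted p = 0.355, edgeR's quasi-likelihood test), and it was -0.86 without that mouse (adjusted p = 0.0729). Counts were 83 to 375 per mouse.

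**Figure D2:**
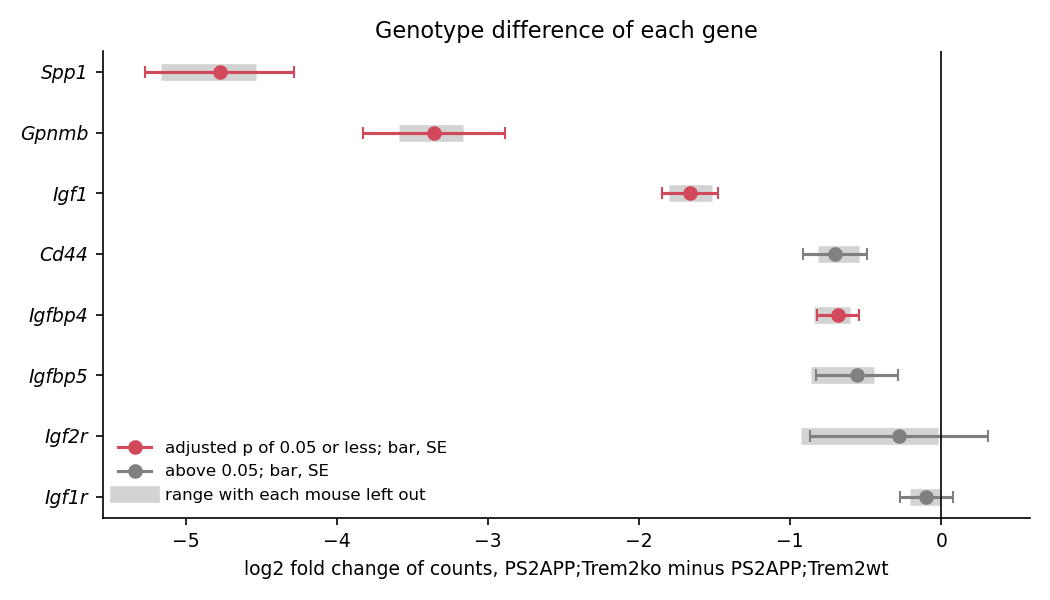
Log2 fold change of each gene, PS2APP;Trem2ko against PS2APP;Trem2wt (edgeR, 6 and 7 mice); bars are 1 SE, grey bands are the range of the values with 1 mouse left out, and red points had an adjusted p of 0.05 or less. Spp1, Gpnmb, Igf1 and Igfbp4 were called lower, and the bands of all 4 stay below 0. So do the bands of the genes that were not called, so this does not set the called genes apart. The upper ends of those bands are -0.54 for Cd44, -0.45 for Igfbp5, -0.021 for Igf2r and -0.0085 for Igf1r.

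The order of mean levels per length was the same in both genotypes, except that Igf1 and Igfbp4 changed places. In PS2APP;Trem2wt mice the order by mean nRPKM was Spp1, Gpnmb, Igf1, Igfbp4, Igf1r, Cd44, Igfbp5 and Igf2r. Neighbours in that order had overlapping ranges for Igf1 and Igfbp4, where Igf1 was the higher in 3 of 7 mice, and for Igf1r and Cd44, where Igf1r was the higher in 4 of 7. The other neighbours did not overlap and kept their order in 7 of 7 mice. In PS2APP;Trem2ko mice Igfbp4 stood above Igf1, in 6 of 6 mice, and only Cd44 and Igfbp5 were neighbours with ranges that did not overlap.

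The next question was whether members fell by different amounts, which was tested with log2 ratios of pairs of members within each mouse and a two-sided exact permutation test over 1716 splits of the mice, adjusted over 6 ratios. The smallest p these splits can give is 0.000583. The members were chosen with earlier results of these data known. Spp1 to Cd44 and Igf1 to Igf1r each set a called gene against an uncalled gene in the same mice. These ratios therefore largely restate the results for single genes. Spp1 stood at 93.5, 231 and 310 times Cd44 (lowest, median and highest) in PS2APP;Trem2wt mice and at 5.56, 9.20 and 30.8 times Cd44 in PS2APP;Trem2ko mice. The ratios of the genotypes did not overlap. The log2 ratio was lower by a difference of -4.08 in PS2APP;Trem2ko mice (exact permutation p = 0.000583, adjusted 0.00175).

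The ratio of Igf1 to its receptor Igf1r was 2.05, 3.74 and 5.20 (lowest, median and highest) in PS2APP;Trem2wt mice and 0.716, 1.18 and 1.98 in PS2APP;Trem2ko mice. No mouse of 1 group reached the other, and the log2 difference was -1.52 (exact permutation p = 0.00117, adjusted 0.00233). Gpnmb fell more than Igf1. Gpnmb was 5.33, 7.98 and 14.0 times Igf1 in PS2APP;Trem2wt mice and 1.13, 2.07 and 4.61 times Igf1 in PS2APP;Trem2ko mice, again without overlap, a log2 difference of -1.97 (exact permutation p = 0.000583, adjusted 0.00175).

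Spp1 was 3.24, 4.36 and 6.42 times Gpnmb (lowest, median and highest) in PS2APP;Trem2wt mice and 0.623, 2.28 and 5.38 times Gpnmb in PS2APP;Trem2ko mice. Of the PS2APP;Trem2ko mice, 4 of 6 lay below all PS2APP;Trem2wt mice. The log2 difference was -1.12 (exact permutation p = 0.0204, adjusted 0.0306), but it kept an adjusted p of 0.05 or less in only 6 of the 13 analyses that left out 1 mouse. It was lost without PS2APP;Trem2wt replicate 1, 3, 5, 6 or 7 (differences -1.03, -1.07, -1.12, -1.14 and -1.10) and without PS2APP;Trem2ko replicate 2 or 3 (-0.96 and -0.78), with adjusted p from 0.0519 to 0.0747 by the exact permutation test. For the receptors, the log2 ratio of Igf2r to Igf1r differed by -0.15 (exact permutation p and adjusted p both 0.714). For the binding proteins, the log2 ratio of Igfbp4 to Igfbp5 was 3.60 ± 0.350 and 3.36 ± 0.486 (SD, n = 7 and 6), a difference of -0.24 (exact permutation p = 0.328, adjusted 0.393). That ratio depended on the pseudocount: with 1 in place of 0.1 the difference was -0.44 (exact permutation p adjusted 0.0126).

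**Figure D3:**
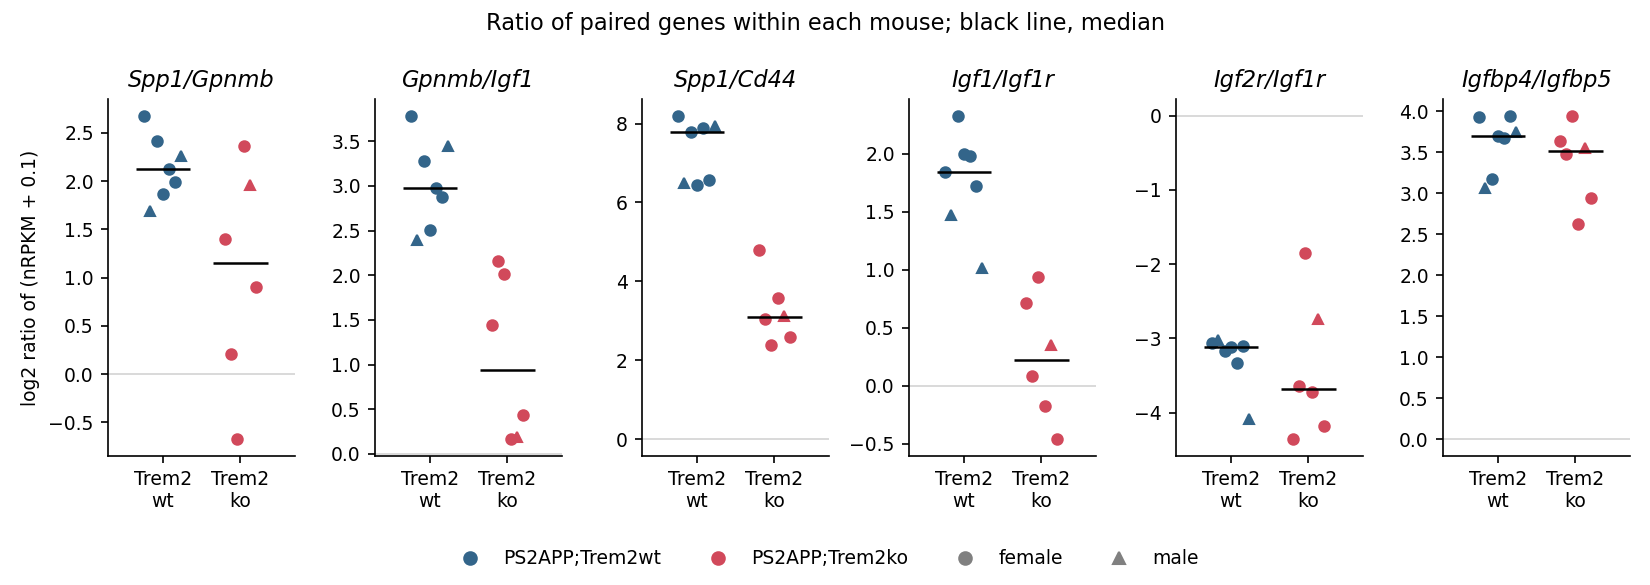
Log2 ratios of 6 pairs of members within each mouse, from nRPKM + 0.1, for 7 PS2APP;Trem2wt and 6 PS2APP;Trem2ko mice; circles are females, triangles are males and black lines are medians. The groups do not overlap for Gpnmb to Igf1, Spp1 to Cd44 and Igf1 to Igf1r.

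Whether members varied together among mice of 1 genotype was then asked for 5 pairs in each genotype, 10 relations in all, on log2(nRPKM + 0.1). In PS2APP;Trem2wt mice Spp1 and Gpnmb ranked the mice almost alike: replicates 1 and 3 were the highest in both and replicates 4 and 2 the lowest. Pearson's r was 0.985 (n = 7, exact permutation p = 0.000397, adjusted 0.00397) and Spearman's rho 0.964 (exact permutation p = 0.00278, adjusted 0.0278), and r was 0.977 without the 2 mice farthest from the Spp1 median. In PS2APP;Trem2ko mice the same pair gave r = 0.385 (n = 6, exact permutation p = 0.469, adjusted 0.671) and rho = 0.0286 (exact permutation p = 1, adjusted 1), and r was -0.22 without the 2 farthest mice. These values pool the 3 mice with high and the 3 with low Gpnmb, a split seen in the values and not tested. Each set is too small for a value of its own. The mouse with the highest Spp1, replicate 1 with 25.0 nRPKM, had 9.40 nRPKM of Gpnmb, whereas replicate 3, with the highest Gpnmb, had 6.87 nRPKM of Spp1. Whether the relation differed between the genotypes was not tested.

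None of the other 8 relations passed the test. The smallest p among them was that of Gpnmb and Igf1 in PS2APP;Trem2ko mice, again pooled over mice with high and low Gpnmb. There r was 0.81 (n = 6, exact permutation p = 0.0597, adjusted 0.299) and rho 0.829 (exact permutation p = 0.0583, adjusted 0.292). The r was 0.65 without the 2 mice farthest from the Gpnmb median. Igf1 gave r = 0.42 with Spp1 (rho = 0.321) and r = 0.559 with Gpnmb (rho = 0.500) in PS2APP;Trem2wt mice, and r = 0.63 with Spp1 (rho = 0.314) in PS2APP;Trem2ko mice. Without the 2 mice farthest from the median these 3 values of r fell below 0. Only 5 PS2APP;Trem2wt or 4 PS2APP;Trem2ko mice were then left, too few for a precise r. Cd44 gave r = 0.516 with Spp1 in PS2APP;Trem2wt mice (-0.69 without the 2 farthest mice) and r = -0.06 in PS2APP;Trem2ko mice. Igf1r gave r = 0.216 and -0.18 with Igf1 in the same order of genotypes. The sorted fraction of each mouse is 1 library, so these pairs share its depth and cell make-up.

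**Figure D4:**
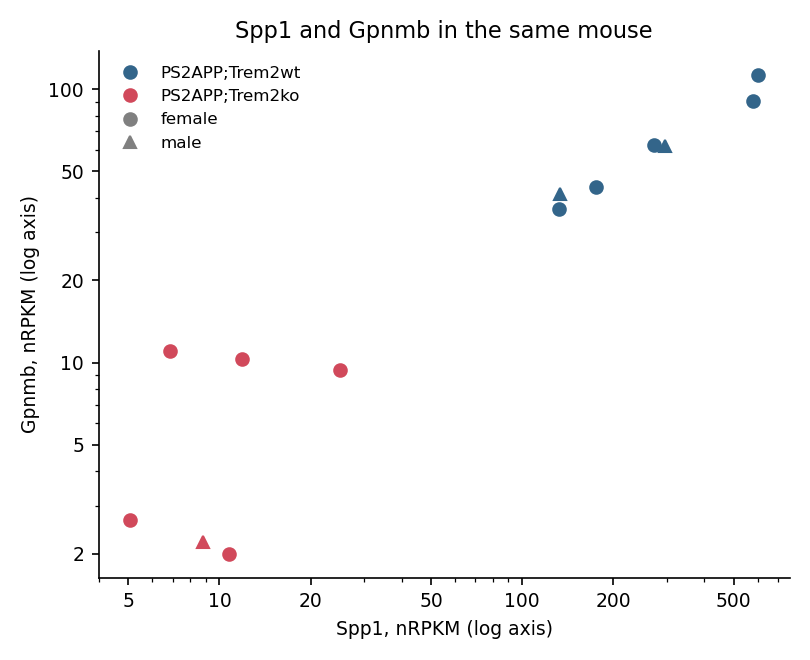
Spp1 against Gpnmb in each mouse, in nRPKM on log axes, for 7 PS2APP;Trem2wt (blue) and 6 PS2APP;Trem2ko (red) mice; triangles are males. The PS2APP;Trem2wt mice lie along a line (r = 0.985), and the PS2APP;Trem2ko mice fall into a high and a low Gpnmb group across overlapping Spp1 levels.

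The other genes of each pathway were read from the same fit, in lists drawn up with earlier results of these data known. In the IGF list of 20 ligands, receptors, binding proteins and their proteases, 11 genes were tested, of which 2 were lower, the members Igf1 and Igfbp4, and 0 were higher. The median log2 fold change was -0.26 over the 11 genes, members included, and -0.07 over the 6 that were not members. Those 6 ranged from -0.32 to 0.20, with 0 at an unadjusted p of 0.05. Insr, the insulin receptor, was at 2.76 ± 0.596 nRPKM in PS2APP;Trem2wt and 2.82 ± 0.284 nRPKM in PS2APP;Trem2ko mice (SD, n = 7 and 6). Pappa, the protease that cleaves Igfbp4, was among 9 genes whose counts were too low to be tested.

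Downstream of the IGF1 receptor, 22 of 24 genes of the PI3-kinase and AKT route were tested and edgeR called 0 in either direction, with 1 lower and 1 higher at an unadjusted p of 0.05. By voom with limma and by DESeq2 the calls were also 0. Their log2 fold changes ranged from -0.24 to 0.26 with a median of -0.05. Akt1, the kinase at the centre of the route, was at 58.3 ± 9.88 nRPKM in PS2APP;Trem2wt and 57.3 ± 6.63 nRPKM in PS2APP;Trem2ko mice (SD, n = 7 and 6), and Pik3cd, the PI3-kinase subunit of leukocytes, was at 30.6 ± 4.94 and 30.4 ± 3.42 nRPKM. Transcript levels of kinases carry no information on their activity.

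Among the integrins that bind osteopontin and its relatives of bone and tooth matrix, 9 of 15 genes were tested and Spp1 was the 1 gene called lower, with 0 higher. Of the other 8, 7 had a log2 fold change below 0, with a median of -0.21 and a range of -1.10 to 0.16, and 3 (Itgav, Itga9 and Itgb5) were lower at an unadjusted p of 0.05 by edgeR and 5 by voom with limma. Itgav, the αv chain shared by most osteopontin receptors, was at 26.6 ± 4.54 and 18.8 ± 4.37 nRPKM (SD, n = 7 and 6), with a log2 fold change of -0.50 (adjusted p = 0.104, edgeR's quasi-likelihood test). DESeq2 called Itgav and Itga9 lower, but over all tested genes it called 530 lower, beside 262 by edgeR. The share of all tested genes at an unadjusted p of 0.05 was not worked out, for this list or the others. The unadjusted counts, and the 7 values below 0 here, therefore do not set any list apart from all tested genes. Itgb5, a partner chain of Itgav and the most abundant of the list, was at 850 ± 109 and 732 ± 48.3 nRPKM (log2 fold change -0.22, adjusted p = 0.236, edgeR).

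In the list around Cd44, which holds hyaluronan enzymes, other ligands, the linker proteins of its tail, its partner Cd74 and its sheddases, 14 of 17 genes were tested and edgeR called 0 lower and 0 higher, with 3 lower and 0 higher at an unadjusted p of 0.05. The median log2 fold change was -0.05. Mmp14, a membrane protease that sheds CD44, was at 12.6 ± 2.42 and 8.54 ± 1.88 nRPKM (SD, n = 7 and 6), with a log2 fold change of -0.56 (adjusted p = 0.0627, edgeR), and voom with limma and DESeq2 called it lower; it was singled out after its values were seen. Cd74, the invariant chain of antigen presentation, spanned 138 to 1709 nRPKM in PS2APP;Trem2wt and 120 to 2336 nRPKM in PS2APP;Trem2ko mice, and Msn, a linker to actin, had a mean of 206 nRPKM in both.

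Of 9 genes around Gpnmb, namely its paralogue, a receptor, 2 sheddases and the MiT factors, 8 were tested. Gpnmb alone was called lower and 0 were higher, and the log2 fold changes of the other 7 ran from -0.37 to 0.32. The sheddase Adam10 was at 91.1 ± 10.6 nRPKM in PS2APP;Trem2wt and 88.5 ± 13.5 nRPKM in PS2APP;Trem2ko mice, and the MiT factor Tfe3 at 38 ± 3.64 and 36.9 ± 3.66 nRPKM (SD, n = 7 and 6). Mitf, singled out after its values were seen, was at 3.28 ± 0.806 and 4.08 ± 0.665 nRPKM (SD, n = 7 and 6), with a log2 fold change of 0.32 (adjusted p = 0.346, edgeR's quasi-likelihood test).

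**Figure D5:**
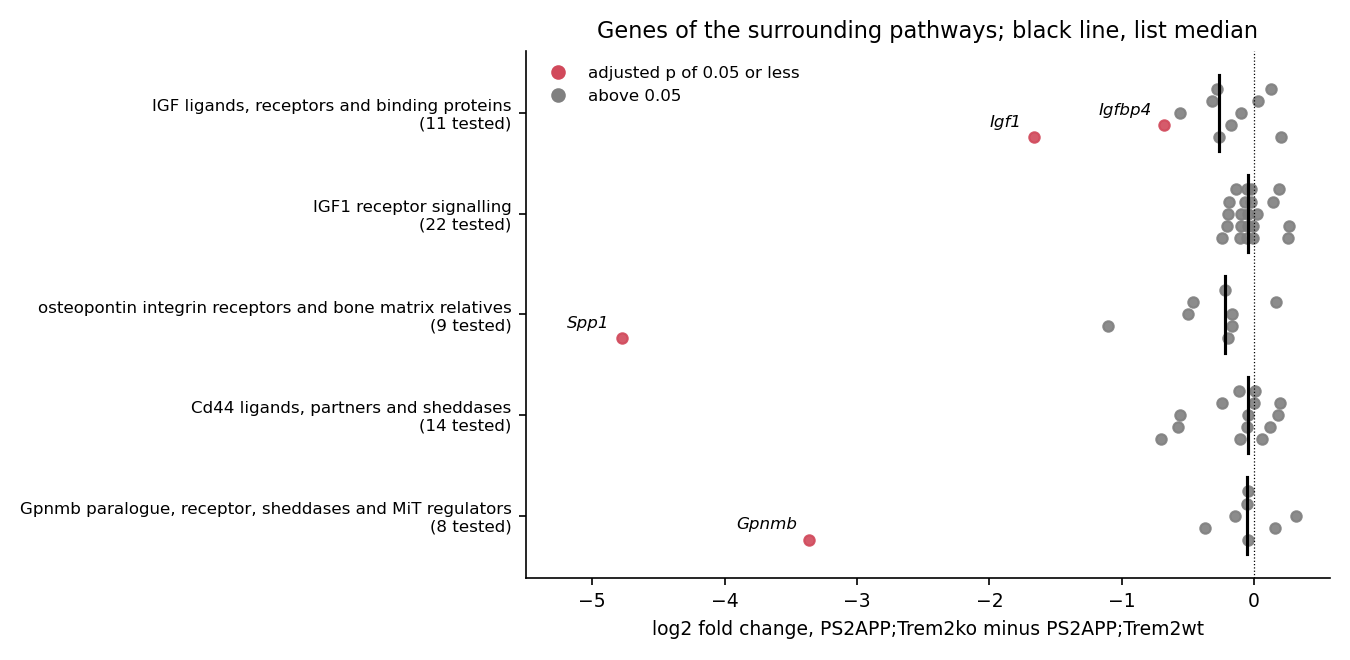
Log2 fold change of every tested gene in the 5 lists, PS2APP;Trem2ko against PS2APP;Trem2wt (edgeR); red points were called at an adjusted p of 0.05 or less and black lines are list medians. The called genes are Spp1, Gpnmb, Igf1 and Igfbp4, and Spp1 and Gpnmb lie far from the other genes of their lists.

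The genes whose pattern was most like that of the members were sought among 13322 tested genes by Pearson's r of log2 CPM (counts scaled to library size) over the 13 mice, as a description in which the points share libraries and the genotypes stand apart. For Spp1 they were Yipf7 (0.98), Cst7 (0.98), Baiap2l2 (0.97), Tmem176b (0.96) and Tmem176a (0.96). For Gpnmb they were Yipf7 (0.96), Cst7 (0.96), Mamdc2 (0.95), Actr3b (0.95) and Igf1 (0.95). For Igf1 they were Ank (0.98), Fam20c (0.98), Actr3b (0.98), Efr3b (0.97) and Cst7 (0.97). Cst7, which encodes the protease inhibitor cystatin F, was the 1 gene named for all 3 members.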

How the data were processed

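RNA of FACS-sorted cells from 13 mice was sequenced by the authors, who aligned the reads to GRCm38 with GSNAP. For each mouse they deposited uniquely aligned read counts per gene, not normalized, and nRPKM, RPKM after a further size-factor adjustment. Whether the counting used strand is not given in the sources used here. Genotype and sex came from the labels, which do not give the pairs in which mice were generally handled. Names and coordinates came from GENCODE M21 on GRCm38 (52403 of 52636 identifiers matched). RPKM values were used for levels, ratios and relations, and counts for tests across genes. For single genes, whether mice of 1 genotype lay below all of the other was read from CPM after TMM scaling. The search for like genes also used that CPM, among genes with a mean of 1 or more.

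The tests used edgeR 4.0.16 (R 4.3.3): filterByExpr by genotype, TMM scaling, glmQLFit and glmQLFTest with no covariate, and Benjamini-Hochberg adjustment over 17086 genes. The SE of a log2 fold change was taken from its F statistic (size over root F). The common BCV, edgeR's measure of variation between mice, was 0.299. Ratios and relations used log2(nRPKM + 0.1) and two-sided exact permutation tests in Python 3.11.15 (scipy 1.17.1, numpy 2.4.6, pandas 2.3.3). Total counts were 26120961 to 120569609 per mouse, and a limit of 3 counts was 0.0249 to 0.115 CPM, which covers counting error only. No libraries of 1 genotype were alike within sampling noise in the 36 pairs compared.

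The members and lists were chosen with earlier results of these data known. The text names the members, Trem2, every called gene of each list with a selection of its 4 most abundant others, and the 5 genes most like Spp1, Gpnmb and Igf1; Mmp14, Mitf, Itga9 and Pappa were named after their values were seen. Alternatives were DESeq2 1.42.0, voom with limma 3.58.1, limma on nRPKM with a pseudocount of 0.1 or 1, RLE scaling, a filter of 10 counts in 6 mice or none, a term for sex, females alone, a 2-fold threshold, and leaving out each mouse. The tests were first tested on simulated data. Protein sequences were not analysed here.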

Additional observations from a re-analysis of the deposited data

Results flagged for a closer look

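Each gene's log2(nRPKM + 0.1) and each log2 ratio were screened within each genotype for a mouse far from the others, 28 groups of values in all, of which 2 held such a mouse. Chance alone flags about 1 in 20 groups. For Igfbp5, PS2APP;Trem2ko replicate 4 was the highest of its group at -0.61 on the log2(nRPKM + 0.1) scale, beside -1.38 in the next highest mouse and -1.80 in the lowest. For Igf2r to Igf1r, PS2APP;Trem2wt replicate 7, a male, had the lowest log2 ratio of its group at -4.08, beside -3.32 in the next lowest mouse. The highest of that group, at -3.01, was replicate 2, the other male. Replicate 7 had the lowest Igf2r level and the second highest Igf1r level of the 7 PS2APP;Trem2wt mice.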

How the results depend on the processing

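Spp1, Gpnmb and Igf1 kept their direction and call under every alternative run. The number of members called lower was 4 in every analysis without 1 mouse, 5 with DESeq2 (Cd44 added), 3 in females alone (Igfbp4 lost) and 3 with a 2-fold threshold. Igf1r turned to a log2 fold change of 0.17 in females alone. Over all tested genes, 262 were lower and 86 higher. The lower genes were 530 with DESeq2, 173 in females alone, 118 with a 2-fold threshold and 191 to 284 without 1 mouse. The higher genes were 332 with DESeq2, 53 with no filter, 9 with a 2-fold threshold and 42 to 107 without 1 mouse. The IGF list held 1 lower gene in females alone in place of 2, and the osteopontin list 3 with DESeq2 in place of 1. The Cd44 list, with 0 lower genes in edgeR, held 1 with voom and limma, 2 with DESeq2, 1 with limma on log2(nRPKM + 0.1) and 0 to 1 without 1 mouse (1 without PS2APP;Trem2ko replicate 3). With a pseudocount of 1, the log2 ratio difference was 0.031 for Igf2r to Igf1r, a turned sign, and -0.44 for Igfbp4 to Igfbp5 (exact permutation p adjusted 0.0126), past the threshold. Without 1 mouse, the difference ranged from -0.46 to 0.039 for Igf2r to Igf1r, above 0 without PS2APP;Trem2ko replicate 1 (0.039) or 6 (0.0030), and from -1.39 to -0.78 for Spp1 to Gpnmb. Apart from settings that use fewer genes or mice, the cause was not tested. No paired analysis was possible because the labels do not say which mice were handled together, although the study's methods state that most were taken through sorting in pairs of 1 mouse per genotype; the unpaired tests ignore this. Counts were lowest for Igf2r (7 to 202 per mouse) and Igfbp5 (83 to 375).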

Other observations

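With each genotype's mean subtracted from log2 CPM, the genes most like the members over the 13 mice were others. For Spp1 they were C130050O18Rik (0.91), Oas1c (0.90), Ube2e1 (0.89), Apoc4 (0.88) and Ppp1ccb (0.87). For Gpnmb they were Racgap1 (0.96), 1700018A23Rik (0.95), Tpi1 (0.92), Spc24 (0.90) and Tnf (0.90), of which Racgap1 and Spc24 act in cell division. For Igf1 they were Slc25a1 (0.92), Fgr (0.92), Actr3b (0.92), Fam20c (0.89) and Trpm1 (0.89), and Actr3b and Fam20c were also among the 5 genes most like Igf1 before the means were subtracted. These are correlations over mice that share libraries, picked as the highest of 13322 genes, and are descriptions without a test. For Gpnmb the PS2APP;Trem2ko mice were split into a high and a low set, itself not tested.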
